A study of Mus musculus with 24 samples.

Results

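The 35 genes described here encode the enzymes that bring pyruvate into mitochondria, oxidise it in the tricarboxylic acid (TCA) cycle and refill that cycle. They were the rows of the read count table whose symbol equals 1 of 35 listed names, out of 24091 genes in the table. This rule uses no measured value, but the list was chosen with earlier results of these data known. All 35 were in the table, and all 35 passed the filter on low counts (13520 genes were tested in all). RNA was sequenced from bone marrow Lin-Sca-1+c-Kit+ cells (LSKs, the fraction that holds hematopoietic stem cells and multipotent progenitors) sorted from 24 B6 mice, with 3 females and 3 males in every group of 6. WT mice (miR-142+/+) and miR-142 KO mice (miR-142-/-) carried no leukemia transgene. CP CML mice (miR-142+/+ BCR-ABL) and BC CML mice (miR-142-/- BCR-ABL) carried the SCLtTA/BCR-ABL transgenes, in which the SCL promoter drives a transactivator that expresses BCR-ABL once tetracycline is withdrawn, and they were sampled 2 weeks after withdrawal. Ages are not given in the labels.

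Pyruvate enters mitochondria through a carrier made of Mpc1 and Mpc2. There the pyruvate dehydrogenase complex turns it into acetyl-CoA, pyruvate dehydrogenase kinases switch that complex off and phosphatases switch it back on, while pyruvate carboxylase turns pyruvate into oxaloacetate instead. The TCA cycle burns acetyl-CoA for electron carriers, and anaplerosis (refilling) together with malic enzymes, citrate lyase, aspartate transaminases and glutamate dehydrogenase connects it to NADPH, lipid, amino acid and nucleotide synthesis. Quiescent hematopoietic stem cells are known for high pyruvate dehydrogenase kinase activity and low mitochondrial oxidation, and leukemic stem cells for a reliance on oxidative metabolism.

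Libraries held 16267965 to 24687077 counts. Mir142, the deleted gene, had 94 to 127 counts in WT and 68 to 153 in CP CML libraries and 0 in all 12 libraries of miR-142-/- mice, where a count of 0 allows up to 3. The LSK gate markers Kit and Ly6a were found in every group, at a summed 737 to 1309.8 CPM (read counts scaled to a common library size with the TMM method). In the test described below, BC CML against CP CML LSKs had 1 of them higher (log2 fold change 1.09) and 1 lower (-0.46). Their sums there were 865 to 987 against 1013 to 1309.8 CPM, without overlap. In miR-142 KO against WT LSKs 1 was called higher (1.15) and the other, not called, stood at -0.22. One library stood apart in these genes: miR-142 KO replicate 3, a female, was the highest of its 6 for 26 of the 35 members and the lowest for 4 (Pdk2, Pdk4, Pdp2 and Idh1). Its total of 23532080 counts lay within the 22595352 to 24111549 of the other 5, but its summed neutrophil-primed progenitor markers were at 2833 CPM against 6254 to 7629.8 in those 5, its macrophage markers at 9.42 against 46.5 to 80.6, and its S phase and mitosis markers at 5928 against 4833 to 5134. Counts of members and the main values of called members in comparisons with the miR-142 KO group are therefore given with and without this mouse. Of members that did not pass in miR-142 KO against WT LSKs, Pdk2, Pdha1, Acly and Got1 changed sign without it (to 0.07, -0.02, -0.01 and -0.03).

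Levels of different genes are set side by side only as RPKM (TMM-scaled CPM per kilobase of the length in the table), as the median of the 24 libraries. Mdh2 (180.2), Idh2 (162), Idh3g (143) and Mdh1 (111) had the highest levels, and Pcx (1.77), Mpc1 (1.43), Me1 (0.187) and Pdk4 (0.0925) the lowest. Many neighbours in this order overlapped over the 24 libraries, for example Pdha1 with 82.3 to 114 RPKM, Cs with 74.3 to 124 and Glud1 with 75.9 to 103. Idh1 had a broad range, from 16.4 to 75.9 RPKM. The low members carry few reads: Pdk4 had 0 to 22 counts per library, Me1 7 to 28, Mpc1 18 to 57 and Pcx 79 to 494, so their values are the least precise.

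**Figure D1:**
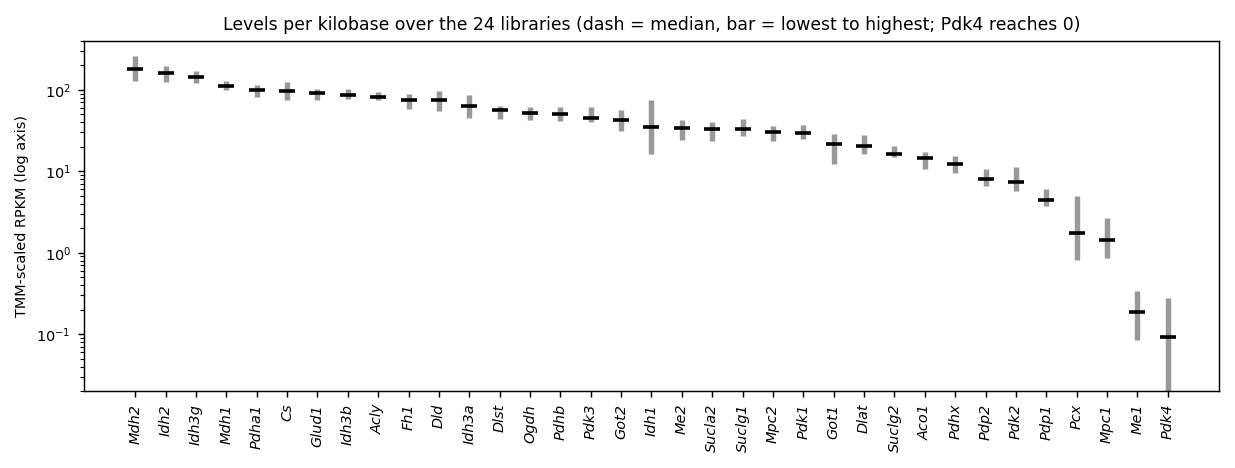
TMM-scaled RPKM of the 35 members on a log axis, ordered by the median over 24 libraries (dash), with a grey bar from the lowest to the highest library. Most members lie between 12.2 and 180.2 RPKM at the median, and Pcx, Mpc1, Me1 and Pdk4 lie below 2.

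The comparisons of BC CML with CP CML LSKs and of miR-142 KO with WT LSKs ask what the loss of miR-142 goes with, in leukemic and in normal cells. They share no library. In BC CML against CP CML LSKs, 10 of the 35 members were higher (28.6%) and 3 were lower (8.57%) in edgeR's quasi-likelihood test at a Benjamini-Hochberg adjusted p below 0.05, where 20.4% of all genes tested were called higher and 17.6% lower. The higher members were Idh1, Pcx, Me1, Mdh2, Sucla2, Suclg1, Idh3b, Me2, Pdhb and Pdk3, and the lower ones were Pdk1, Pdk4 and Pdp1. In miR-142 KO against WT LSKs, 16 members were higher (45.7%) and 2 were lower (5.71%), where 19.9% of all genes were called higher and 16.4% lower. The 7 members that rose in both were Pdk3, Sucla2, Suclg1, Mdh2, Idh1, Pcx and Me2, and Pdk1 was lower in both, where 11.5% of all genes were called higher and 9.59% lower in both. No member was called in opposite directions. The median log2 fold change of the members was 0.12 in the first comparison and 0.16 in the second, against 0.01 over all genes in each, and 0.12 in the second without miR-142 KO replicate 3. Without miR-142 KO replicate 3 the counts for miR-142 KO against WT were 11 higher and 3 lower, and each of those 11 was among the 16. Over all genes, 2586 of 13616 were then called higher and 1961 lower. With the 12 libraries compared fitted alone, 9 members were higher in that comparison, where 1986 of 13037 genes were called higher. Under upper quartile normalization 10 members were higher. That normalization also moved the calls over all genes, from 2757 higher and 2380 lower to 2162 and 2932 in BC CML against CP CML LSKs and from 2685 and 2222 to 2115 and 2918 in miR-142 KO against WT LSKs. In bulk RNA, fewer cells of a type and less RNA per cell cannot be told apart.

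The 6 values of each group did not overlap for 6 members that were higher in BC CML LSKs than in CP CML LSKs (11.4% of all genes do so) and for 1 that was lower (9.29%). For miR-142 KO against WT this held for 5 higher members (8.31% of all genes) and 1 lower (6.15%), and for the same numbers without miR-142 KO replicate 3 (10% and 7.26% of all genes). Markers of other cells moved in the same comparisons, with the values given as ranges of the summed CPM of each list. In BC CML against CP CML LSKs, the 6 mast cell or basophil markers summed to 4369 to 9219 CPM against 1579 to 2918 (3 of 6 called higher), the 10 stem cell markers to 418 to 591 against 642 to 860.4 (7 of 10 lower), and the B lineage markers to 28.7 to 40.8 against 174 to 793 (4 of 9 tested lower). The T or NK cell markers summed to 96.3 to 133 against 75.1 to 92.7 (2 of 6 higher, 1 lower) and the monocyte or dendritic cell markers to 1024 to 1351 against 655 to 921 (3 of 8 lower). Neutrophil-primed progenitor markers were called higher in 4 of 7 in this comparison (median log2 fold change 0.69). Erythroid markers were called lower in 3 of 7, mature neutrophil markers in 3 of 9 (1 higher) and megakaryocyte markers in 1 of 6. The sums of these lists overlapped between BC CML and CP CML LSKs. In miR-142 KO against WT LSKs, the neutrophil-primed progenitor markers summed to 2833 to 7629.8 CPM against 1293 to 4907 (7 of 7 higher), the stem cell markers to 557 to 746 against 857 to 1539 (7 of 10 lower) and the B lineage markers to 27.8 to 48.7 against 72.0 to 981 (3 of 9 tested lower). The T or NK cell markers summed to 118 to 202 against 57.8 to 103 (5 of 6 higher, 1 lower) and the erythroid markers to 418 to 599 against 619 to 763 (2 of 7 lower). Megakaryocyte markers were called higher there in 5 of 6, mature neutrophil markers in 6 of 9 and mast cell or basophil markers in 4 of 6, and macrophage markers lower in 4 of 6, with sums that overlapped between the groups. Without miR-142 KO replicate 3, the neutrophil-primed progenitor sums were 6254 to 7629.8 CPM, above all WT mice. The megakaryocyte sums were then 254.8 to 582.8 CPM against 144.7 to 237.1 in WT. The mature neutrophil, mast cell or basophil and macrophage sums still overlapped. No marker gene of these lists was at 0 in all 6 mice of a group, and their part in the members' differences was not tested. The S phase and mitosis markers differed less, with 4338 to 5489 CPM in BC CML, 4331 to 5121 in CP CML, 4833 to 5928 in miR-142 KO and 4092 to 5163 in WT LSKs (2 of 12 higher in each of the 2 comparisons).

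**Figure D2:**
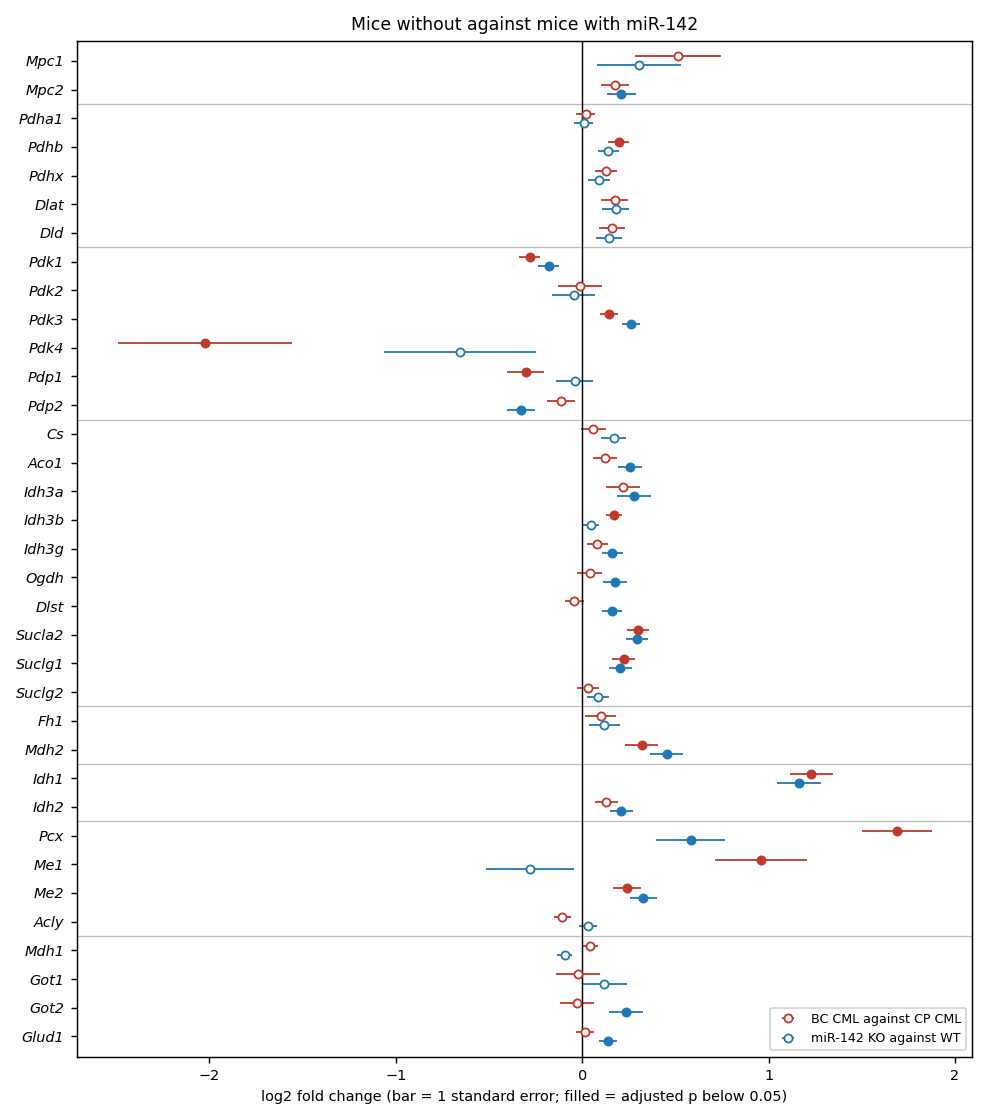
Log2 fold change of each of the 35 members in BC CML against CP CML (red) and miR-142 KO against WT LSKs (blue), grouped by role with grey lines. Bars are 1 SE and filled points passed an adjusted p of 0.05: Idh1 stands at 1.23 and 1.16, whereas Pcx stands at 1.69 and 0.58 and Me1 at 0.96 and -0.28.

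Of the NADP-dependent isocitrate dehydrogenases, Idh1 rose in all 4 comparisons. Idh1 (chr1:65158616-65186479, minus strand, mm10) is the cytosolic and peroxisomal enzyme that converts isocitrate to 2-oxoglutarate and yields NADPH. From here on 3 values in a row are the lowest, the median and the highest of 6 mice. Idh1 stood at 39.7, 50.8 and 70.7 CPM in WT and 85.8, 122 and 140.0 in miR-142 KO LSKs. Leukemic mice had 66.7, 74.7 and 83.7 in CP CML and 148, 179 and 184 in BC CML LSKs. The BC CML values lay above all CP CML values and the miR-142 KO values above all WT values, with no overlap in either comparison. Idh1 was 2.34-fold higher in BC CML LSKs than in CP CML LSKs (log2 fold change 1.23, SE 0.12, adjusted p = 2.28e-08) and 2.24-fold higher in miR-142 KO LSKs than in WT LSKs (log2 fold change 1.16, SE 0.12, adjusted p = 7.25e-08). The difference between these effects was 0.07 on the log2 scale, with an interval of 2 SE from -0.26 to 0.39 and an adjusted p of 0.876, and -0.03 without miR-142 KO replicate 3. Without miR-142 KO replicate 3, whose Idh1 was the lowest of its group, the miR-142 KO against WT difference was 1.25 (adjusted p = 1.08e-08). Idh1 also rose with BCR-ABL, by 0.52 (SE 0.12, adjusted p = 0.00103) in CP CML against WT and by 0.58 (SE 0.11, adjusted p = 4.65e-04) in BC CML against miR-142 KO LSKs, on the log2 scale (0.50 with adjusted p = 0.000703 in the latter without replicate 3).

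Idh2, the mitochondrial enzyme of the same reaction, moved less. Its levels were 219, 243 and 266 CPM in WT and 264, 276 and 339.6 in miR-142 KO LSKs. With BCR-ABL the values were 250.3, 288 and 313 in CP CML and 293, 307 and 337 in BC CML LSKs. The lowest miR-142 KO mouse was just below the highest WT mouse, and the BC CML and CP CML ranges overlapped. Idh2 was higher in miR-142 KO LSKs than in WT LSKs (log2 fold change 0.21, SE 0.06, adjusted p = 0.0112, and 0.16 with adjusted p = 0.0248 without replicate 3), and the value for BC CML against CP CML LSKs was 0.13 (adjusted p = 0.107). The ratio of Idh1 to Idh2, in RPKM, was 0.119, 0.152 and 0.193 in WT, 0.182, 0.320 and 0.382 in miR-142 KO, 0.180, 0.193 and 0.194 in CP CML and 0.348, 0.420 and 0.433 in BC CML LSKs. BC CML ratios lay above all CP CML ratios, while in miR-142 KO LSKs replicate 3 alone overlapped with WT.

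Pyruvate carboxylase and the malic enzymes held the members whose response to miR-142 loss differed between leukemic and normal LSKs. Of these and the citrate lyase Acly, 3 of 4 rose in BC CML against CP CML LSKs and 2 of 4 in miR-142 KO against WT LSKs. Pcx (chr19:4510472-4621752, plus strand), the mitochondrial enzyme that makes oxaloacetate from pyruvate, stood at 5.13, 5.89 and 7.71 CPM in WT and 7.47, 9.48 and 11.1 in miR-142 KO LSKs. In leukemic LSKs the values were 3.43, 4.29 and 5.33 in CP CML and 9.58, 11.6 and 21.0 in BC CML LSKs. CP CML LSKs were the lowest group and BC CML the highest, without overlap between the 2, and miR-142 KO overlapped narrowly with WT. Pcx was 3.22-fold higher in BC CML LSKs than in CP CML LSKs (log2 fold change 1.69, SE 0.19, adjusted p = 3.19e-07) and 1.5-fold higher in miR-142 KO LSKs than in WT LSKs (log2 fold change 0.58, SE 0.18, adjusted p = 0.0155, and 0.64 with adjusted p = 0.0115 without replicate 3). The leukemic effect exceeded the normal one by 1.10 on the log2 scale (SE 0.26, adjusted p = 0.0184, and 1.03 with adjusted p = 0.0262 without that mouse). Over all genes this difference was called higher for 1.91% and lower for 2.08%, and among the 35 members for 2 and 0. Within the BC CML group, the males replicates 5 and 6 were at 21.0 and 19.2 CPM and the other 4 mice at 9.58 to 11.8.

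Me1 (chr9:86581363-86695914, minus strand), the cytosolic malic enzyme that turns malate into pyruvate and yields NADPH, was the other member with a difference between effects. It stood at 0.569, 0.787 and 1.15 CPM in WT and 0.552, 0.619 and 0.884 in miR-142 KO LSKs. The BCR-ABL groups were at 0.307, 0.465 and 0.728 in CP CML and 0.604, 0.924 and 1.21 in BC CML LSKs. Ranges overlapped between BC CML and CP CML, where 5 of 6 CP CML mice were below all BC CML mice, and between miR-142 KO and WT. Me1 was 1.94-fold higher in BC CML LSKs than in CP CML LSKs (log2 fold change 0.96, SE 0.25, adjusted p = 0.00370), and in miR-142 KO against WT LSKs its value was -0.28 (adjusted p = 0.372). The effects differed by 1.24 (SE 0.34, adjusted p = 0.0405). This call rests on counts of 7 to 28 per library and was lost when any 1 of 17 of the 24 mice was left out, miR-142 KO replicate 3 among them (adjusted p = 0.0527), with an adjusted p of up to 0.0810.

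Me2, the mitochondrial malic enzyme, was called higher in all 4 comparisons. Its levels were 93.0, 100.2 and 116 CPM in WT and 118, 119 and 163 in miR-142 KO LSKs. Leukemic mice had 126, 134 and 139 in CP CML and 136, 161 and 166 in BC CML LSKs. The miR-142 KO mice did not overlap with the WT mice, and the BC CML and CP CML ranges overlapped slightly. Me2 rose in miR-142 KO against WT LSKs (log2 fold change 0.33, SE 0.07, adjusted p = 0.00118, and 0.26 with adjusted p = 0.00154 without replicate 3) and in BC CML against CP CML LSKs (log2 fold change 0.24, SE 0.07, adjusted p = 0.0118). Acly, the citrate lyase that returns acetyl-CoA to the cytosol, had values of -0.11 (adjusted p = 0.0835) and 0.03 (adjusted p = 0.654) in these comparisons.

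**Figure D3:**
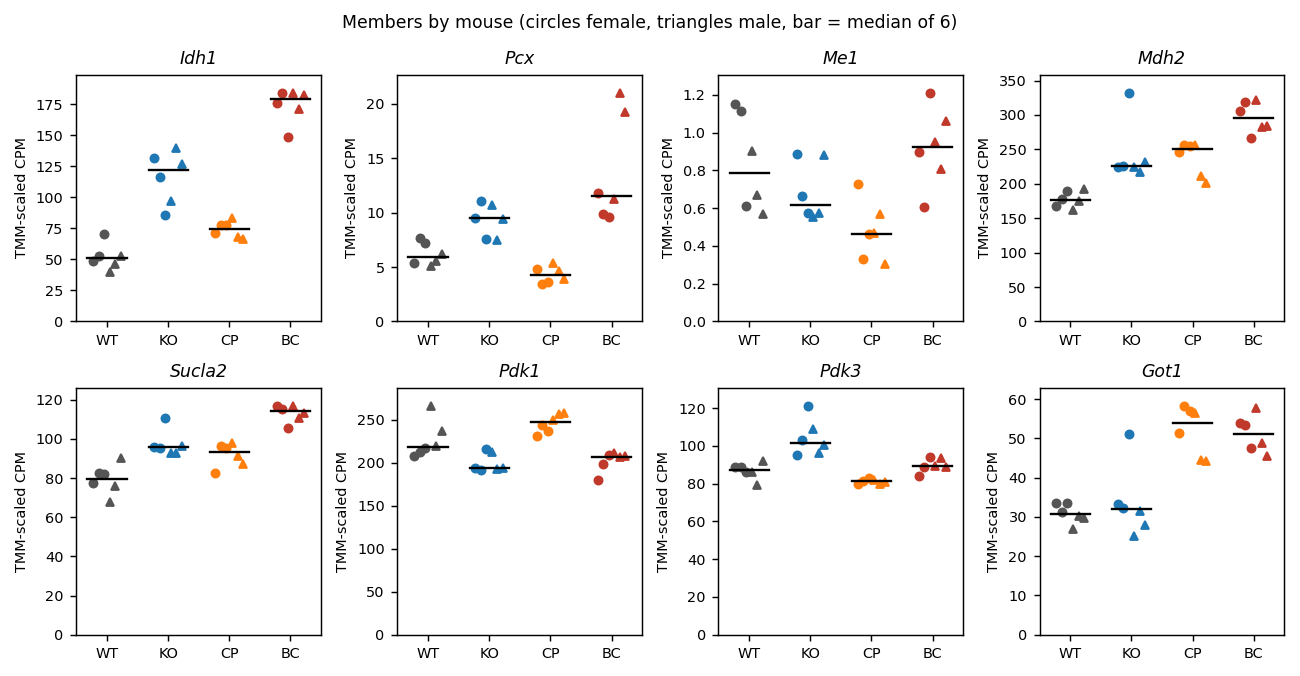
TMM-scaled CPM of 8 members in each mouse (circles female, triangles male), with the median of 6 as a bar and the axes starting at 0. Idh1 separates mice without miR-142 (KO, BC) from those with it (WT, CP), Pcx is lowest in CP CML at a median of 4.29 CPM and highest in BC CML at 11.6, and 1 KO female stands above its group in Mdh2 and Got1.

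Sites for the deleted microRNA were looked up in the longest annotated 3' UTR of each gene (GENCODE M21, GRCm38), because such a site is what miR-142 pairs with through bases 2 to 8 of its mature strands. Those bases (the seed) are in capitals in the mature sequences, which are from RefSeq.
miR-142a-3p (chr11:87756903-87756925, plus strand): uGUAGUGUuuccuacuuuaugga
miR-142a-5p (chr11:87756867-87756887, plus strand): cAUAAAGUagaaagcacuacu
The match to the 3p seed was found in 2 of 35 members, Idh2 and Pcx (5.71%, against 6.92% of 12609 tested genes with a 3' UTR). The match to the 5p seed was found in 5, Pdk4, Suclg2, Fh1, Me1 and Mdh1 (14.3%, against 15.8%). Those of the members called in BC CML against CP CML LSKs, and that of Idh2, are shown with the match in capitals.
Pcx (chr19:4621430-4621436, plus strand): cagcacacACACTACctgcaatg
Idh2 (chr7:80095103-80095109, minus strand): gggtggACACTACtcagctcc
Me1 (chr9:86582710-86582716, minus strand): gatttttaACTTTATtagtaaaa
Pdk4 (chr6:5484938-5484944, minus strand): atcaaagcACTTTATcgagcttg
Of the members that hold a match, Pcx and Me1 were called higher and Pdk4 lower in BC CML against CP CML LSKs. Idh2, Suclg2, Fh1 and Mdh1 also hold one and were not called there (log2 fold changes of 0.13, 0.03, 0.10 and 0.04). For miR-142 KO against WT LSKs, Pcx and Idh2 were called higher, and Me1 (-0.28), Pdk4, Suclg2, Fh1 and Mdh1 were not called. Idh1, which rose in both comparisons without miR-142, holds neither match in its 3' UTR. A match of 7 letters is a description of the sequence, and the share of members that hold one is near that of all genes.

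Of the 5 subunits of the pyruvate dehydrogenase complex and its 6 kinases and phosphatases, 1 subunit and 1 regulator rose and 3 regulators fell in BC CML against CP CML LSKs, and 1 regulator rose and 2 fell in miR-142 KO against WT LSKs. The regulators had median log2 fold changes of -0.20 and -0.11. These medians pool kinases that switch the complex off with phosphatases that switch it back on, so they carry no direction for the complex. The 5 subunits of the complex had positive values in both comparisons, other than Pdha1 in miR-142 KO against WT without miR-142 KO replicate 3, with a median log2 fold change of 0.16 in BC CML against CP CML and 0.14 in miR-142 KO against WT LSKs, but only Pdhb in the first comparison passed the test. Pdhb (chr14:8165991-8172992, minus strand), the beta subunit of the pyruvate-decarboxylating enzyme, was at 61.7, 71.0 and 81.0 CPM in WT and 73.2, 76.3 and 86.9 in miR-142 KO LSKs. With BCR-ABL the values were 67.7, 70.6 and 73.9 in CP CML and 75.2, 79.1 and 91.6 in BC CML LSKs. All BC CML values lay above the CP CML values, and the miR-142 KO and WT ranges overlapped. It rose by 0.20 (SE 0.06, adjusted p = 0.00954) on the log2 scale in BC CML against CP CML LSKs, and the call was lost without BC CML replicate 4 (0.14, adjusted p = 0.0616). Pdha1, Pdhx, Dlat and Dld had values of 0.02 to 0.18 there.

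Pdk1 (chr2:71873224-71903858, plus strand), the kinase isoform best known as a target of hypoxia-inducible factor, was lower in mice without miR-142. It stood at 207, 218 and 266 CPM in WT and 192, 194 and 215 in miR-142 KO LSKs. In leukemic LSKs the values were 230.4, 247 and 257 in CP CML and 179, 207 and 211 in BC CML LSKs. All 6 BC CML mice lay below all 6 CP CML mice, whereas miR-142 KO and WT overlapped at the top of the KO range. Pdk1 fell in BC CML against CP CML LSKs (log2 fold change -0.28, SE 0.05, adjusted p = 3.04e-04) and in miR-142 KO against WT LSKs (log2 fold change -0.18, SE 0.05, adjusted p = 0.0126, and -0.19 with adjusted p = 0.0104 without replicate 3). The latter call was lost without WT replicate 4 (-0.13, adjusted p = 0.0548).

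Pdk3 (chrX:93764616-93832095, minus strand), another kinase isoform, went the other way. Its levels were 79.4, 87.4 and 91.8 CPM in WT and 95.4, 102 and 121 in miR-142 KO LSKs. The BCR-ABL groups were at 79.9, 81.3 and 83.2 in CP CML and 84.0, 89.2 and 94.0 in BC CML LSKs. Mice without miR-142 were higher in both comparisons and no groups compared there overlapped. Pdk3 rose by 0.26 (SE 0.05, adjusted p = 1.82e-04) on the log2 scale in miR-142 KO against WT LSKs, and 0.22 with adjusted p = 0.000246 without replicate 3. The rise in BC CML against CP CML LSKs was smaller (log2 fold change 0.14, SE 0.05, adjusted p = 0.0219) and that call was lost without any 1 of 11 of the 12 mice (all but BC CML replicate 1, adjusted p of up to 0.0909) and under upper quartile normalization (0.10, adjusted p = 0.104).

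Pdk4, the isoform induced by fasting and fatty acids, was the member with the lowest level, with 0.287, 0.388 and 0.948 CPM in WT and 0.0885, 0.298 and 0.530 in miR-142 KO LSKs. Leukemic mice had 0.289, 0.527 and 0.830 in CP CML and 0, 0.132 and 0.303 in BC CML LSKs. BC CML libraries held 0 to 6 counts and CP CML libraries 7 to 19, and in CPM the highest BC CML mouse was just above the lowest CP CML mouse. Pdk4 fell in BC CML against CP CML LSKs (log2 fold change -2.02, SE 0.47, adjusted p = 0.00156), and in miR-142 KO against WT LSKs the value was -0.66 (adjusted p = 0.218). Pdk2 showed values of -0.01 (2 SE interval -0.24 to 0.22) and -0.05 (-0.27 to 0.18) in these comparisons.

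Pdp1 and Pdp2, the phosphatases that reactivate the complex, each fell in 1 of the 2 comparisons. Pdp2 (chr8:104591468-104596849, plus strand) stood at 30.1, 32.5 and 37.4 CPM in WT and 22.9, 27.5 and 28.8 in miR-142 KO LSKs. With BCR-ABL the values were 24.7, 28.5 and 31.3 in CP CML and 24.4, 25.6 and 29.8 in BC CML LSKs. Each miR-142 KO mouse was below each WT mouse (log2 fold change -0.33, SE 0.07, adjusted p = 0.00120, and -0.28 with adjusted p = 0.00496 without replicate 3), and BC CML and CP CML overlapped (-0.11, adjusted p = 0.236). Pdp1 was lower in BC CML LSKs than in CP CML LSKs (log2 fold change -0.30, SE 0.10, adjusted p = 0.0183) and at -0.04 (adjusted p = 0.776) in miR-142 KO against WT LSKs. Neither difference between effects passed the test (adjusted p = 0.258 for Pdp2 and 0.310 for Pdp1).

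As shares of the summed RPKM of Pdk1 to Pdk4, Pdk1 made up 34.7%, 37.4% and 40.8% in WT, 30.6%, 31.4% and 32% in miR-142 KO, 40.2%, 42.0% and 43.0% in CP CML and 34.3%, 34.9% and 36.2% in BC CML LSKs. Pdk3 made up 47.4%, 52.1% and 53.3%, then 56.3%, 57.7% and 62.8%, then 48.0%, 49.8% and 50.6%, and then 55.0%, 56.1% and 57.5% in the same order of groups. In every BC CML mouse the Pdk1 share was below and the Pdk3 share above that of every CP CML mouse. The same held for miR-142 KO against WT mice, whereas the Pdk1 shares of BC CML and WT mice overlapped. Both shares are parts of 1 sum, so they do not move independently. The sum itself overlapped, with 73.5 to 84.4 RPKM in BC CML and 79.9 to 84.5 in CP CML, and with 85.2 to 96.9 in miR-142 KO and 80.0 to 91.4 in WT LSKs. These shares describe the members and carry no test.

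**Figure D4:**
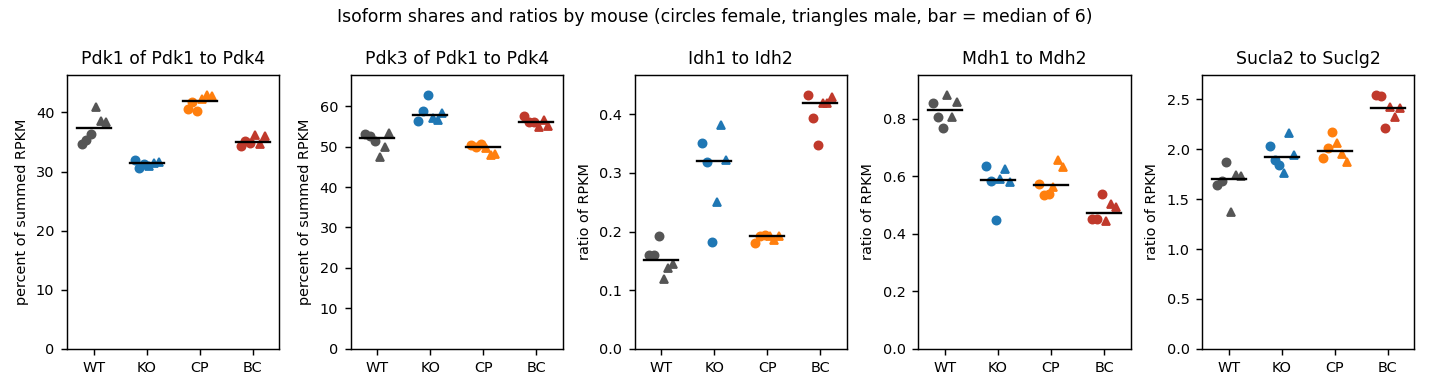
Pdk1 and Pdk3 as percent of the summed RPKM of Pdk1 to Pdk4, and ratios of RPKM within 3 pairs of isoforms, in each mouse (circles female, triangles male, bar the median of 6). The Pdk1 share is 34.3% to 36.2% in BC CML against 40.2% to 43.0% in CP CML LSKs, and the Mdh1 to Mdh2 ratio is 0.767 to 0.883 in WT against 0.443 to 0.657 in the other 3 groups.

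In the TCA cycle from citrate to succinate, 3 of 10 members were higher in BC CML LSKs than in CP CML LSKs (Sucla2, Suclg1 and Idh3b) and 7 of 10 in miR-142 KO LSKs than in WT LSKs (Aco1, Idh3a, Idh3g, Ogdh, Dlst, Sucla2 and Suclg1), with none lower. Sucla2 (chr14:73552786-73596142, plus strand), the ATP-forming beta subunit of succinyl-CoA ligase, stood at 67.8, 79.6 and 90.1 CPM in WT and 92.7, 95.6 and 111 in miR-142 KO LSKs. In leukemic LSKs the values were 82.7, 93.5 and 97.7 in CP CML and 106, 114 and 117 in BC CML LSKs. Both groups without miR-142 lay wholly above their controls. Sucla2 rose by 0.30 (SE 0.06, adjusted p = 2.96e-04) in BC CML against CP CML and by 0.29 (SE 0.06, adjusted p = 3.33e-04) in miR-142 KO against WT LSKs, on the log2 scale, and by 0.26 with adjusted p = 0.000753 in the latter without replicate 3. Suclg2, the GTP-forming beta subunit, had values of 0.03 (adjusted p = 0.721) and 0.09 (adjusted p = 0.272). The ratio of Sucla2 to Suclg2 in RPKM was 1.37, 1.71 and 1.87 in WT, 1.77, 1.92 and 2.16 in miR-142 KO, 1.87, 1.98 and 2.18 in CP CML and 2.21, 2.41 and 2.55 in BC CML LSKs, where every BC CML mouse was above every other mouse.

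Isocitrate dehydrogenase 3, the NAD-dependent enzyme of the cycle, is built from Idh3a, Idh3b and Idh3g. Idh3b was at 126, 130.3 and 135 CPM in WT and 130, 131 and 149.7 in miR-142 KO LSKs. The BCR-ABL groups were at 118, 127 and 137 in CP CML and 136, 143 and 155 in BC CML LSKs. The highest CP CML mouse overlapped with the lowest BC CML mouse, and Idh3b rose in that comparison (log2 fold change 0.17, SE 0.04, adjusted p = 0.00279) while its value in miR-142 KO against WT LSKs was 0.05 (adjusted p = 0.396). Idh3a, the catalytic subunit, was at 116, 126 and 142 CPM in WT and 137, 138 and 218 in miR-142 KO LSKs. Leukemic mice had 157, 178 and 186 in CP CML and 179, 203 and 223 in BC CML LSKs. In the miR-142 KO group replicate 3 alone was at 218 CPM, with the other 5 at 137 to 152. Idh3a rose in miR-142 KO against WT LSKs (log2 fold change 0.28, SE 0.09, adjusted p = 0.0196), by 0.16 with adjusted p = 0.0363 without that mouse, and its value in BC CML against CP CML LSKs was 0.22 (adjusted p = 0.0588). Idh3g (0.16, adjusted p = 0.0302) lost its miR-142 KO against WT call without replicate 3 (0.12, adjusted p = 0.0736) and without WT replicates 1, 4 or 5.

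Aco1, the cytosolic aconitase that doubles as an iron-regulatory protein, was at 45.2, 53.0 and 54.7 CPM in WT and 54.7, 60.8 and 74.5 in miR-142 KO LSKs. With BCR-ABL the values were 57.0, 63.9 and 68.7 in CP CML and 61.6, 69.5 and 73.9 in BC CML LSKs. The highest WT mouse and the lowest miR-142 KO mouse met at 54.7 CPM, and Aco1 was higher in miR-142 KO LSKs (log2 fold change 0.26, SE 0.07, adjusted p = 0.00375, and 0.21 with adjusted p = 0.00763 without replicate 3). Suclg1, the shared alpha subunit of succinyl-CoA ligase, rose by 0.22 (adjusted p = 0.00655) and 0.20 (adjusted p = 0.0126, and 0.16 with adjusted p = 0.0282 without replicate 3). Ogdh and Dlst, both of the 2-oxoglutarate dehydrogenase complex, rose by 0.17 (adjusted p = 0.0405) and 0.16 (adjusted p = 0.0198) in miR-142 KO against WT LSKs, and their values in BC CML against CP CML LSKs were 0.04 and -0.04. Without miR-142 KO replicate 3 the adjusted p was 0.0887 for Ogdh and 0.0426 for Dlst, and Ogdh also lost its call without WT replicates 1, 4, 5 or 6. Cs, the citrate synthase that opens the cycle, had values of 0.06 (adjusted p = 0.509) and 0.17 (adjusted p = 0.0515), and the latter passed with DESeq2 (0.0416), with sex as a covariate (0.0352) and with a filter of 1 CPM in 6 samples (0.0426), but not without miR-142 KO replicate 3 (0.12, adjusted p = 0.124).

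Mdh2 (chr5:135778649-135790386, plus strand), the mitochondrial malate dehydrogenase that closes the cycle, was the member with the highest level per kilobase. It stood at 162, 176 and 192 CPM in WT and 217, 225 and 332 in miR-142 KO LSKs. In leukemic LSKs the values were 202, 250.7 and 256 in CP CML and 267, 295 and 322 in BC CML LSKs. Neither BC CML and CP CML nor miR-142 KO and WT overlapped, and miR-142 KO replicate 3 was at 332 CPM where the other 5 were at 217 to 232. Mdh2 rose in BC CML against CP CML LSKs (log2 fold change 0.32, SE 0.09, adjusted p = 0.00629) and in miR-142 KO against WT LSKs (log2 fold change 0.45, SE 0.09, adjusted p = 3.20e-04), by 0.35 with adjusted p = 0.000166 in the latter without replicate 3. Fh1, the fumarase before it, had values of 0.10 (adjusted p = 0.372) and 0.12 (adjusted p = 0.280).

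Its cytosolic counterpart Mdh1 was at 216, 219 and 252 CPM in WT and 202, 207 and 228 in miR-142 KO LSKs. The BCR-ABL groups were at 196, 211 and 221 in CP CML and 212, 218 and 219.8 in BC CML LSKs, with overlap between all groups. The values for Mdh1 were 0.04 (2 SE interval -0.04 to 0.12) in BC CML against CP CML and -0.09 (-0.17 to -0.01) in miR-142 KO against WT LSKs, and the latter was called lower without replicate 3 (-0.11, adjusted p = 0.0399). The ratio of Mdh1 to Mdh2 in RPKM was 0.767, 0.831 and 0.883 in WT, 0.449, 0.586 and 0.635 in miR-142 KO, 0.536, 0.568 and 0.657 in CP CML and 0.443, 0.473 and 0.538 in BC CML LSKs, and all WT mice were above all others.

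Of the mitochondrial pyruvate carrier and the enzymes of the malate-aspartate shuttle and glutamate, Mpc2, Got2 and Glud1 rose in miR-142 KO against WT LSKs and none passed the test in BC CML against CP CML LSKs. Mpc2 was at 22.4, 23.9 and 26.9 CPM in WT and 23.0, 29.2 and 30.8 in miR-142 KO LSKs. Leukemic mice had 20.0, 24.2 and 27.7 in CP CML and 24.8, 27.6 and 29.1 in BC CML LSKs, with overlap between miR-142 KO and WT, and rose in miR-142 KO LSKs (log2 fold change 0.21, SE 0.08, adjusted p = 0.0342). That call was lost without any 1 of 7 of the 12 mice, WT replicates 1, 4 and 5 and miR-142 KO replicates 2, 3, 5 and 6 (adjusted p of up to 0.0744). Mpc1 had values of 0.51 (adjusted p = 0.0790) and 0.31 (adjusted p = 0.297). Its span shares 4296 bases with 4930506C21Rik on the opposite strand, and the strand setting of the counting is not given in the sources used here, so reads of the 2 cannot be told apart. The opposite-strand gene held 0 to 3 counts per library. Spans on opposite strands also overlap for Fh1 and Kmo (46 to 446 counts for Kmo) and for Pdha1 and Map3k15 (97 to 315 for Map3k15). The same holds for Me1 and A330041J22Rik (0 to 1 counts). Pcx shares 3884 bases of its span with Lrfn4 on the opposite strand. Lrfn4 held 148 to 313 counts per library and Pcx 79 to 494. Whether reads of Lrfn4 entered the Pcx counts was not tested. Got1 lies within the span that the table gives for Gm38437 on the same strand, a gene of 0.133 kb with 0 to 1 counts.

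Got2, the mitochondrial aspartate transaminase of the malate-aspartate shuttle, was at 72.4, 75.1 and 88.0 CPM in WT and 80.4, 88.1 and 120.3 in miR-142 KO LSKs. With BCR-ABL the values were 99.9, 117 and 130.2 in CP CML and 99.4, 116 and 124 in BC CML LSKs. The miR-142 KO and WT ranges overlapped, and Got2 was higher in miR-142 KO LSKs (log2 fold change 0.24, SE 0.09, adjusted p = 0.0431), a call lost without replicate 3 (0.15, adjusted p = 0.126), miR-142 KO replicate 4 or WT replicates 1, 4, 5 or 6. Glud1, glutamate dehydrogenase, was at 239, 253 and 269 CPM in WT and 261, 267 and 319 in miR-142 KO LSKs. In leukemic LSKs the values were 292, 298 and 306 in CP CML and 281, 301 and 323 in BC CML LSKs and also overlapped between miR-142 KO and WT. Its rise there (log2 fold change 0.14, SE 0.05, adjusted p = 0.0275) was lost without replicate 3 (0.10, adjusted p = 0.0588) or WT replicate 1. Got1, Got2 and Glud1 were at -0.02, -0.03 and 0.02 in BC CML against CP CML LSKs, none of which passed the test.

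The comparisons of CP CML with WT and of BC CML with miR-142 KO LSKs ask what BCR-ABL goes with, in mice with and without miR-142. In CP CML against WT LSKs, 20 of 35 members were higher (57.1%) and 4 lower (11.4%), where 22.5% of all genes were called higher and 22.9% lower. The 6 values did not overlap for 13 higher members (11.9% of all genes) and for none that were lower (9.87%). In BC CML against miR-142 KO LSKs, 15 members were higher (42.9%) and 4 lower (11.4%), where 20.3% of all genes were called higher and 19.3% lower. Here groups did not overlap for 2 higher members, Pdhx and Idh1 (6.09% of all genes), and for 1 lower, Pdk3 (4.48%). Without miR-142 KO replicate 3 this held for 17 higher members (15.5% of all genes) and for 2 lower, Pdk2 and Pdk3 (10.1%). The members' median log2 fold change was 0.20 and 0.12, against -0.02 over all genes in each, and 0.17 against -0.03 in the second without miR-142 KO replicate 3. Without miR-142 KO replicate 3, 20 members were higher and 4 lower in BC CML against miR-142 KO LSKs, and Aco1, Idh3b, Dlst, Idh2 and Glud1 were the ones added. Calls over all genes rose as well, from 2747 higher and 2611 lower of 13520 genes to 3211 and 3260 of 13616. Upper quartile normalization moved the calls over all genes from 3045 higher and 3098 lower to 2642 and 3702 in CP CML against WT and from 2747 and 2611 to 2383 and 3135 in BC CML against miR-142 KO LSKs. Marker sums moved here too, and their part was not tested. In CP CML against WT LSKs, the neutrophil-primed progenitor markers were at 4548 to 7725 CPM against 1293 to 4907 (6 of 7 higher), the mast cell or basophil markers at 1579 to 2918 against 263 to 764 (4 of 6 higher), the stem cell markers at 642 to 860.4 against 857 to 1539 (9 of 10 lower) and the erythroid markers at 442 to 584 against 619 to 763 (6 of 7 lower). In BC CML against miR-142 KO LSKs, the neutrophil-primed progenitor markers were at 5916 to 8690.5 against 2833 to 7629.8 (4 of 7 higher), the mast cell or basophil markers at 4369 to 9219 against 425 to 2886 (3 of 6 higher), the stem cell markers at 418 to 591 against 557 to 746 (7 of 10 lower) and the erythroid markers at 329 to 483 against 418 to 599 (6 of 7 lower). Megakaryocyte markers were called lower there in 5 of 6 and mature neutrophil markers in 6 of 9 (2 higher).

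Got1, the cytosolic aspartate transaminase, had the largest rise of the 35 members in both comparisons. It stood at 27.0, 30.8 and 33.7 CPM in WT and 25.2, 32 and 51.1 in miR-142 KO LSKs. The BCR-ABL groups were at 44.2, 53.9 and 58.2 in CP CML and 45.6, 51.0 and 57.7 in BC CML LSKs. All CP CML mice were above all WT mice, and BC CML overlapped with the 51.1 CPM of miR-142 KO replicate 3, the other 5 of that group being at 25.2 to 33.2. Got1 rose by 0.75 (SE 0.12, adjusted p = 4.15e-05) in CP CML against WT and by 0.61 (SE 0.12, adjusted p = 5.17e-04) in BC CML against miR-142 KO LSKs, on the log2 scale, and by 0.75 with adjusted p = 8.75e-07 in the latter without replicate 3. Got2 rose by 0.57 (adjusted p = 3.33e-05) and 0.31 (adjusted p = 0.00938, and 0.39 without replicate 3), and Idh3a by 0.46 (adjusted p = 3.37e-04) and 0.40 (adjusted p = 0.00154, and 0.51 with adjusted p = 5.93e-07 without replicate 3).

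Of the pyruvate dehydrogenase complex, Pdha1, Pdhx, Dlat and Dld rose in both comparisons, by 0.21 to 0.38 in CP CML against WT and by 0.22 to 0.38 in BC CML against miR-142 KO LSKs (0.25 to 0.44 without replicate 3), and Pdhb passed in neither (-0.00 and 0.05). Citrate synthase Cs rose by 0.43 (adjusted p = 2.93e-05) and 0.32 (adjusted p = 8.33e-04, and 0.36 without replicate 3), and fumarase Fh1 by 0.30 (adjusted p = 0.00602) and 0.28 (adjusted p = 0.0115, and 0.35 without replicate 3). Pdk2, a broadly expressed kinase isoform, fell in both (-0.42, adjusted p = 0.00555, and -0.38, adjusted p = 0.0117, and -0.50 in the latter without replicate 3). Pdp2 fell in CP CML against WT LSKs (-0.23, adjusted p = 0.0138), a call lost without WT replicate 4 or CP CML replicate 6 (adjusted p of up to 0.0574).

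Among members of anaplerosis and NADPH supply, Pcx and Me1 went down with BCR-ABL in mice with miR-142. Idh1, Idh2, Me2, Got2 and Glud1 were called higher in that comparison (log2 fold changes of 0.20 to 0.57). Pcx was lower in CP CML than in WT LSKs (log2 fold change -0.53, SE 0.19, adjusted p = 0.0240) and higher in BC CML than in miR-142 KO LSKs (log2 fold change 0.57, SE 0.18, adjusted p = 0.0152, and 0.51 with adjusted p = 0.0312 without replicate 3). The first call was lost without WT replicates 2 or 3 or CP CML replicates 2, 3 or 6 (adjusted p of up to 0.0685) and the second without BC CML replicates 5 or 6 (adjusted p of up to 0.0641). Me1 was lower in CP CML than in WT LSKs (log2 fold change -0.82, SE 0.25, adjusted p = 0.00953), and its value in BC CML against miR-142 KO LSKs was 0.42 (adjusted p = 0.167). Pdk4, Pdp1 and Pdk3 were lower in BC CML than in miR-142 KO LSKs, at -1.27 (adjusted p = 0.0436), -0.32 (adjusted p = 0.0135) and -0.21 (adjusted p = 0.00166). Without replicate 3 these were -1.47, -0.33 and -0.18. The Pdk4 call was lost without any 1 of 10 of the 12 mice, all but miR-142 KO replicate 3 and BC CML replicate 3 (adjusted p of up to 0.106).

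**Figure D5:**
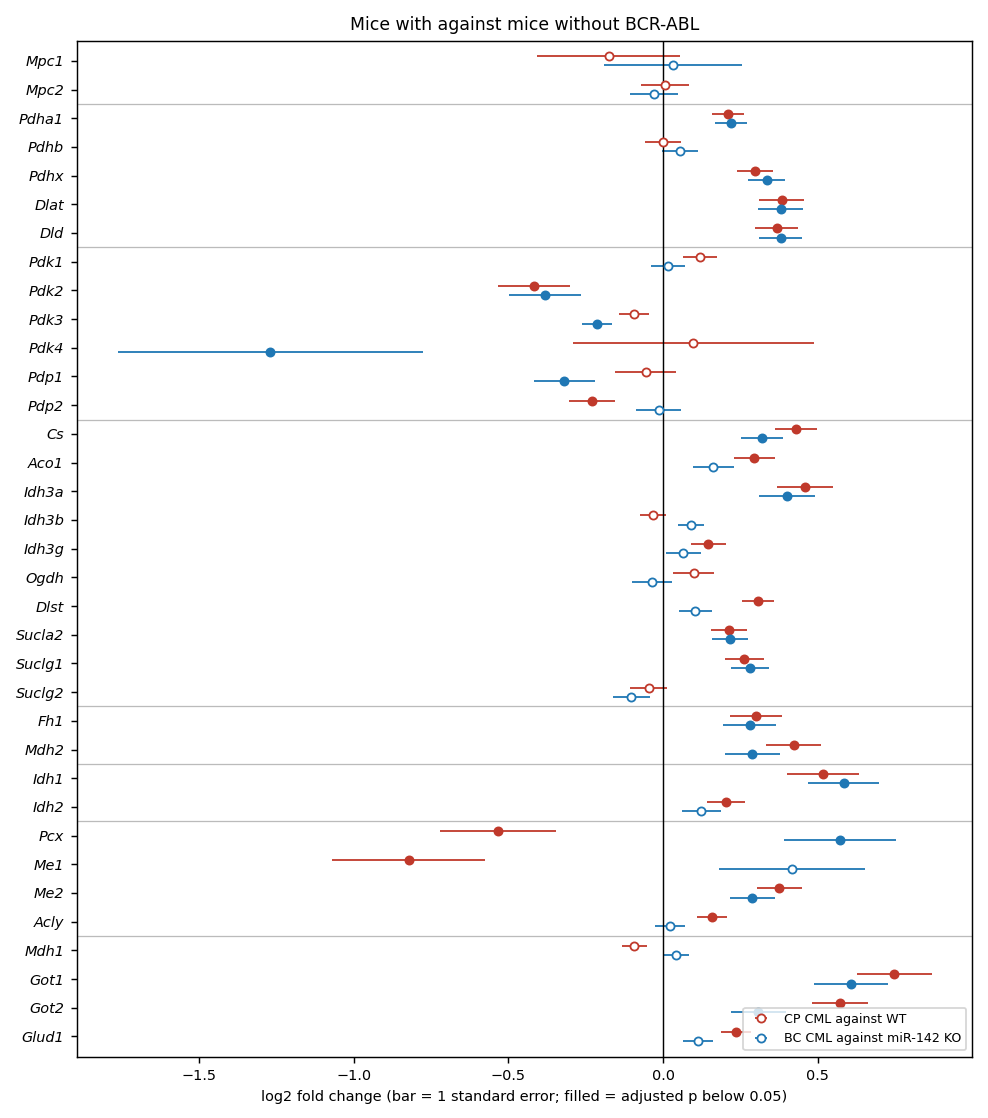
Log2 fold change of each of the 35 members in CP CML against WT (red) and BC CML against miR-142 KO LSKs (blue), grouped by role with grey lines. Bars are 1 SE and filled points passed an adjusted p of 0.05: Got1 is at 0.75 and 0.61, and Pcx is at -0.53 and 0.57, on opposite sides of 0.

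The pathway around the members was followed in 9 further lists with 72 tested genes. Of these, 14 were higher and 6 lower in BC CML against CP CML LSKs, and 23 were higher and 5 lower in miR-142 KO against WT LSKs, with medians of 0.09 and 0.12. These are 19.4% and 8.33%, and 31.9% and 6.94%, of the 72, where 20.4% and 17.6%, and 19.9% and 16.4%, of all genes were called higher and lower, so in the first comparison the share called higher was near that of all genes. In CP CML against WT LSKs 25 were higher (34.7%) and 12 lower (16.7%), in BC CML against miR-142 KO LSKs 20 (27.8%) and 12 (16.7%), and the difference between the effects of miR-142 loss was called lower for 1 (1.39%), Pklr. Sdhc, a membrane subunit of succinate dehydrogenase, rose by 0.21 (adjusted p = 0.0103) in the first comparison. In the list of acetyl-CoA use and NADPH supply 1 of 11 genes rose in that comparison and 3 fell (median -0.07), and the one that rose was Pgd of the pentose phosphate pathway (log2 fold change 0.45, SE 0.09, adjusted p = 3.46e-04). Adhfe1, with 1 to 28 counts in CP CML libraries and 2 to 9 in BC CML libraries, fell by 1.32 on the log2 scale (adjusted p = 0.0281).

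Carriers and entry enzymes of substrates were part of the same lists. The aspartate-glutamate carrier Slc25a12 and the oxoglutarate carrier Slc25a11, partners of Got2 and Mdh2 in the malate-aspartate shuttle, rose by 0.16 (adjusted p = 0.0453) and 0.15 (adjusted p = 0.0288) in BC CML against CP CML LSKs. Oxct1, which activates ketone bodies, and Mut, which feeds propionate carbon into succinyl-CoA, rose by 0.37 (adjusted p = 4.16e-05) and 0.30 (adjusted p = 9.11e-05) with no overlap between the groups. The monocarboxylate exporter Slc16a3 rose by 0.74 (adjusted p = 4.01e-04). Glutamine synthetase Glul fell by 0.53 (adjusted p = 1.52e-04) and mitochondrial acetyl-CoA synthetase Acss1 by 0.66 (adjusted p = 5.39e-06), on the log2 scale. Pklr, the erythroid and liver pyruvate kinase, had 14 to 77 counts in CP CML libraries and 0 to 2 in BC CML libraries and was lower (log2 fold change -5.72, SE 0.95, adjusted p = 5.37e-05), a fitted fold that depends on the prior count since most BC CML libraries held no read.

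Promoters of the members were searched for 6 motifs on both strands, from 250 bases before to 50 after the annotated start (RefSeq, GRCm38.p6), since genes of mitochondrial metabolism are known to share regulators. Windows were found for 32 of 35 members. TGACNNNGC, the core of the antioxidant response element, was held by 7 (21.9%, against 14.0% of 27025 genes), and CACGTG, the E-box, by 4 (12.5%, against 8.09%). TGACGTCA, the cyclic AMP response element, and GCGCATGC, the NRF1 site, were held by 2 each (6.25%, against 2.03% and 3.05%), CCGGAAGT, an ETS site, by 1 (3.13%, against 4.31%) and TCAAGGTCA, the estrogen-related receptor site, by 0 (against 0.466%). No match in a member overlapped with one of another motif. The matches in members that rose in BC CML against CP CML LSKs are shown with 9 bases on each side where the window allows, and with the match in capitals.
Me1 (antioxidant core, chr9:86695903-86695929, minus strand): atgccgccgTGACTCAGCgcttctcgc
Pdhb (antioxidant core on the opposite strand, chr14:8172983-8173009, minus strand): ctactattgGCTGCGTCAgacgggctc
Sucla2 (antioxidant core on the opposite strand, chr14:73552562-73552588, plus strand): actgaagtaGCAGCGTCAcagttctct
Mdh2 (cyclic AMP response element, chr5:135778513-135778538, plus strand): agagaatcgTGACGTCAggcctcgct
Pcx (E-box, chr19:4510222-4510238, plus strand): ccCACGTGaggctttca
The Me1 match begins 6 bases before the start and the Pdhb match 8 bases before it. None of the 6 motifs was found in the window of Idh1, and with counts of members this small the shares describe the windows only.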

How the data were processed

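Bulk RNA-seq of sorted LSKs was analysed from 24 mice in 4 groups of 6, grouped by the genotype in the labels. The study's methods text gives 5 mice per group, and all 6 of each group were used here. The authors deposited 1 table of read counts per gene, not normalized, together with gene coordinates and a gene length in kilobases (another quantity, used for RPKM). Trimmomatic and FASTP cleaned their paired reads, STAR 2.6.0 placed them on mm10 and HTSeq 0.11.1 counted them, per the submitters' processing notes and the methods. The annotation and the strand setting of the counting are not given in the sources used here. All columns of counts were matched to a mouse.

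The 13520 genes that passed edgeR's filterByExpr were fitted in 1 model over the 24 libraries (edgeR 4.0.16 under R 4.3.3, TMM factors, quasi-likelihood tests), with Benjamini-Hochberg adjustment over all of them, a threshold of 0.05 and no fold limit. The p-values are two-sided. Library totals of 16267965 to 24687077 counts limit only the low members, and a count of 0 allows up to 3, which covers counting error alone. Intervals are 2 SE on each side. The fits were tested on simulated counts with 1 spread shared by all genes. The planted folds were larger than those of most called members, and smaller folds were not covered. Alternatives were edgeR's likelihood ratio test, which the study used, DESeq2 1.42.0, RLE and upper quartile factors, other filters, sex as a covariate, fits of the 12 libraries compared, and each mouse left out.

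The members and all gene lists were chosen with earlier results of these data known, and marker lists came from an earlier analysis of the same table. Full statistics were given for members that passed in BC CML against CP CML or miR-142 KO against WT with groups that did not overlap or with 1 of the 2 smallest p-values of their role, for those that passed for the difference between effects, and for the 5 called members with the largest fold change in each of CP CML against WT and BC CML against miR-142 KO. Of other pathway lists, up to 2 called genes with the smallest p were named. Some genes that this rule names are not reported here. Levels are TMM-scaled CPM or, between genes, RPKM. MicroRNA and promoter sequences were from RefSeq (GRCm38) and 3' UTRs from GENCODE M21 on the same build as mm10. Tables and figures were made with Python 3.11.15, pandas 2.3.3 and Matplotlib 3.10.9.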

Additional observations from a re-analysis of the deposited data

Results flagged for a closer look

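In 21 of 139 sets of 6 mice of 1 group, 1 member's highest or lowest mouse stood farther from the others than Dixon's 95% criterion allows, where chance gives about 1 in 20. Of these, 13 were miR-142 KO replicate 3 at the top of its group. Its CPM was 287.8 for Pdha1 (236.7 to 251.3 in the other 5), 99.4 for Dlat (74.1 to 78.5), 303.9 for Cs (236.9 to 257.3), 218.1 for Idh3a (137.2 to 151.9), 149.7 for Idh3b (130.02 to 134.1), 110.7 for Sucla2 (92.7 to 96.2) and 149.4 for Suclg1 (115.1 to 125.7). It was also at 143.3 for Fh1 (100.9 to 113.2), 332.1 for Mdh2 (217.4 to 232.2), 339.6 for Idh2 (264.2 to 285.2), 162.8 for Me2 (117.6 to 132.6), 426.0 for Acly (345.8 to 369.7) and 120.3 for Got2 (80.4 to 91.8). The summed neutrophil-primed progenitor markers of this mouse were at 2833 CPM against 6254 to 7629.8 in the other 5, and their part was not tested.

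The other 8 sets lay in WT and BC CML LSKs. In BC CML LSKs, replicate 4 was highest for Pdha1 (323.7 CPM, 282.0 to 292.6 in the others), replicate 6 highest for Pdp1 (18.6, 16.5 to 17.1), replicate 1 lowest for Pdk1 (179.4, 199.0 to 211.1) and replicate 3 lowest for Idh1 (148.5, 171.1 to 184.4). In WT LSKs, replicate 6 was highest for Suclg1 (122.4, 104.8 to 110.1) and Mdh1 (252.3, 215.6 to 223.3) and lowest for Pdk2 (15.6, 20.6 to 23.5), and replicate 2 was lowest for Aco1 (45.2, 51.8 to 54.7). Pdk4 in BC CML LSKs was not looked at, since 1 library had no count.

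The effect of miR-142 loss differed between leukemic and normal LSKs for Pcx, by 1.10 on the log2 scale, and for Me1, by 1.24, in a test of the difference itself over all 13520 genes with edgeR (adjusted p = 0.0184 and 0.0405). The Me1 call rests on few counts and was lost when any 1 of 17 of the 24 mice was left out (adjusted p of up to 0.0810). The Pcx call held whichever mouse was left out (adjusted p of up to 0.0394).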

How the results depend on the processing

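No fold change of a called member reversed. RLE factors, DESeq2 and sex as a covariate ended no call of a member, and edgeR's likelihood ratio test ended 1 (Idh3g in CP CML against WT). Upper quartile normalization gave 10 higher members in miR-142 KO against WT LSKs, and the 12 libraries fitted alone gave 9, against 16. Over all genes, 2115 of 13520 and 1986 of 13037 were called higher in these 2 settings, against 2685 of 13520. The difference between effects was called higher for 1 member with no filter on low counts (Pcx, with Me1 at adjusted p = 0.0653) and for 1 with at least 1 CPM in 6 samples, where Me1 could not be fitted, against 2. Acly, not called in BC CML against CP CML LSKs, was called lower there by DESeq2, with RLE or upper quartile factors, with the 1 CPM filter and with the 12 libraries alone (-0.15 to -0.12). Calls were gained in miR-142 KO against WT LSKs for Cs and Dlat (1 CPM filter, sex as a covariate, and DESeq2 for Cs) and for Mdh1, lower (DESeq2, upper quartile), and in CP CML against WT LSKs for Mdh1 and Pdk3, both lower (upper quartile, and DESeq2 for Mdh1). In BC CML against CP CML LSKs they were gained for Dlat (sex as a covariate) and Idh3a (12 libraries alone), and in BC CML against miR-142 KO LSKs for Aco1 (DESeq2). With 1 mouse left out, higher members numbered 8 to 12 in BC CML against CP CML, 11 to 18 in miR-142 KO against WT, 19 to 21 in CP CML against WT and 14 to 20 in BC CML against miR-142 KO, and lower members 3 to 4, 1 to 3 (1 without WT replicate 4, 3 without miR-142 KO replicate 3), 2 to 4 (2 without CP CML replicate 6) and 3 to 4. The difference between effects was then called higher for 1 to 2 members and lower for 0 to 1 (Dlst, without miR-142 KO replicate 5 or CP CML replicate 5). Of 936 fold changes of called members with 1 mouse left out, 857 stayed past the threshold and 79 did not. No paired analysis was possible because the labels give no replicate numbers shared between groups. Depth limits Pdk4, Me1, Mpc1 and Pcx, the members with the fewest counts.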
